A study of Mus musculus with 45 samples.

Results

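Bdh1, Acat1, Oxct1 and Slc16a1, 4 genes of ketone body synthesis, use and transport, were followed in bulk transcriptomes of small intestinal tuft cells. They were chosen by name from the 47729 genes in the tables, and all 4 had enough reads to be tested. Male C57BL/6J mice kept at thermoneutrality were fed either a reference diet (RFD, 10% of energy as fat) or a high fat diet (HFD, 60% of energy as fat), and tuft cells were sorted from the small intestine of each animal by surface markers. The labels give these as positive for EpCAM, CD45 and Siglec-F, while the study's text also describes CD45 as a mark of cells to be left out, so that the CD45 gate is not settled here (Ptprc, which encodes CD45, had medians between 85.1 and 171.2 CPM in the 4 groups). The question was how the genes for making, burning and moving ketone bodies differed between the diets. One set of libraries came from 11 RFD and 11 HFD mice at 9 weeks of feeding, and the other from 11 RFD and 12 HFD mice. The sample labels give 9 weeks for both sets, while the study describes a second feeding period of 22 weeks, and the second set was taken as that one, so feeding time and library set cannot be told apart. All mice were wild type, and neither the labels nor the study's methods give a transgene. Each library is 1 mouse, identified below by the number in its title, and the same number in the other diet or set names another library.

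Ketone bodies are small fuels that are made from acetyl-CoA inside mitochondria when much fatty acid is being oxidized. Acat1 joins acetyl-CoA units into acetoacetyl-CoA and runs the opposite way when ketone bodies are burned, and Bdh1 interconverts acetoacetate and beta-hydroxybutyrate. Oxct1 activates acetoacetate for burning in cells that use it, and Slc16a1 encodes the monocarboxylate transporter MCT1, which carries ketone bodies, lactate and pyruvate across the plasma membrane. In the intestinal epithelium ketone synthesis is best known from crypt stem cells.

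In GRCm38 with GENCODE M21, Bdh1 (ENSMUSG00000046598) spans chr16:31422280-31458901 on the plus strand, Acat1 (ENSMUSG00000032047) chr9:53580522-53610382 on the minus strand, Oxct1 (ENSMUSG00000022186) chr15:4026383-4155344 on the plus strand and Slc16a1 (ENSMUSG00000032902) chr3:104638668-104658462 on the plus strand. The 250 bases before the RefSeq start (GRCm38.p6) were found for 3 of the 4 genes and are shown so that the sequence before the start can be set beside each gene's level. They lie at chr16:31422047-31422296 for Bdh1 (the first of 2 starts in the table), chr15:4026178-4026427 for Oxct1 and chr3:104638414-104638663 for Slc16a1, all on the plus strand. They are written 5′ to 3′, and capitals mark matches to GGGCGG, the GC box, and CACGTG, the E-box.
Bdh1: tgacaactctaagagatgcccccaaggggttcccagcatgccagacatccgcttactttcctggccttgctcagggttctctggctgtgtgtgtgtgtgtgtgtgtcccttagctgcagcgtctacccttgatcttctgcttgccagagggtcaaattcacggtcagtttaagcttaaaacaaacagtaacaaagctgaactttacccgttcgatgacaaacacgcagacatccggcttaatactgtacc
Oxct1: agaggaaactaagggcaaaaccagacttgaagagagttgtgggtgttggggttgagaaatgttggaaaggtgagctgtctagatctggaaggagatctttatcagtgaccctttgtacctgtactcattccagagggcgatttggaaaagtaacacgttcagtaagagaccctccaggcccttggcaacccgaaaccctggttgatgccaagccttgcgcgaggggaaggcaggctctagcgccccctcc
Slc16a1: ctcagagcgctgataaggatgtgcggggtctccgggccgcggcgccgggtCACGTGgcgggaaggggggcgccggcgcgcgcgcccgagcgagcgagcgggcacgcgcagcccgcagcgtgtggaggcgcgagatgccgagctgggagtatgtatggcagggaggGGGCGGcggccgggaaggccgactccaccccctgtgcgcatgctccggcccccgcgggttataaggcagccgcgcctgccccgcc
The Slc16a1 promoter had a GC content of 76.4%, against 49.6% for Bdh1, 52.0% for Oxct1 and a median of 52.4% over 32851 promoters of this length. It held 1 GGGCGG, a motif present on either strand in 32.7% of all promoters, and 1 CACGTG, present in 6.02%. The Bdh1 and Oxct1 windows held neither. The motifs AGGTCA (14% of all promoters), CCAAT (33.8%) and TATAAA (12.4%), searched on both strands, were in none of the 3 windows. A match is a description of the letters in the window only.

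The libraries differed in depth and in cell makeup. Total reads on genes per library ranged from 189340 to 4193097 in RFD and from 409023 to 3600000 in HFD at 9 weeks, and from 829184 to 3476758 in RFD and from 661598 to 4690213 in HFD at 22 weeks. Levels are given as CPM, reads scaled to a common library size after TMM normalization, and as the authors' TPM, which is also scaled to gene length. Of the 17 tuft cell markers, Dclk1 and Trpm5 had reads in all 45 libraries, and the summed tuft marker level had a median of 16490 CPM in RFD and 6945 CPM in HFD at 9 weeks, and of 18440 and 14250 CPM at 22 weeks. The summed level of 5 Paneth cell markers (Lyz1, Mmp7, Itln1, Defa24 and Defa17) ran the other way, with medians of 2696 and 27120 CPM at 9 weeks and of 1402 and 10650 CPM at 22 weeks. It exceeded the summed tuft markers in 3 RFD and 8 HFD libraries at 9 weeks and in 2 RFD and 5 HFD libraries at 22 weeks, and in HFD mouse 80 at 9 weeks it reached 578400 CPM beside 353.9 CPM of tuft markers, which goes against that library's label. RFD mouse 3 at 22 weeks had reads on 8609 genes, the fewest, where the next lowest library had 10915. Log2 fold changes without these libraries are given after the marker lists. In bulk libraries, a change in the number of cells of a type cannot be told apart from a change in the RNA of each cell.

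**Figure D1:**
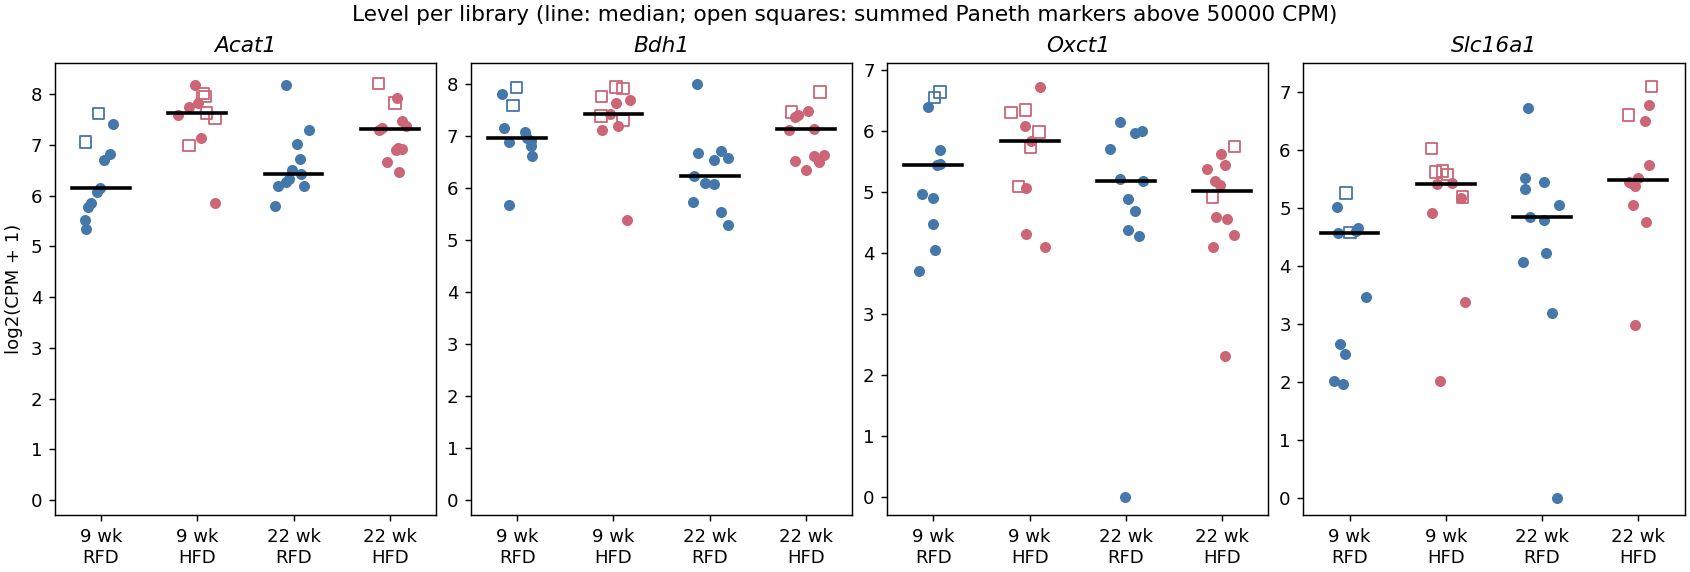
Level of each gene in every library, as log2(CPM + 1), for RFD (blue) and HFD (red) at 9 and 22 weeks, with lines at the medians and open squares for libraries with more than 50000 CPM of summed Paneth markers. Acat1 in HFD lies mostly above RFD at 9 weeks, and Oxct1 overlaps at both times.

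Per unit length, Bdh1 was the most abundant of the 4 transcripts, with a median of 66.9 TPM over the 45 libraries (lowest 17.9, highest 156.1 TPM). Acat1 followed with 32 TPM (11.1 to 92.4 TPM), Oxct1 with 16.9 TPM (0 to 62 TPM) and Slc16a1 with 6.1 TPM (0 to 26.8 TPM). The order was read within each library. Bdh1 was above Acat1 in 44 of 45 libraries and Oxct1 above Slc16a1 in 36 of 45, the latter in 7 of 12 HFD libraries at 22 weeks. Acat1 was above Oxct1 in 39 of 45, but in RFD at 9 weeks in only 6 of 11, so that these neighbours did not keep a fixed order there, whereas in HFD at 9 weeks it was above in 11 of 11.

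Acat1, the mitochondrial acetoacetyl-CoA thiolase, was the gene of the 4 that passed the test at 9 weeks. In RFD its lowest, median and highest levels were 39.6, 70.02 and 196.5 CPM, and in HFD they were 57.0, 197.7 and 288.7 CPM. The highest RFD library was mouse 20 and the lowest HFD library was mouse 64, and the groups overlapped between them: 10 of 11 HFD libraries were above the RFD median and 6 were above every RFD library. The level was 2.07-fold higher on HFD, or 1.05 on the log2 scale (SE 0.29, 95% interval 0.47 to 1.64), with an adjusted p of 0.0662 by edgeR's quasi-likelihood F-test (Benjamini-Hochberg) (n = 11 per diet, called under 0.1). A permutation test of mean log2(CPM + 1) gave a difference of 1.10 (two-sided p = 0.0025, 1 of 8 such tests). The call depended on single libraries: without any 1 of HFD mice 6, 8, 50, 70 or 80 or of RFD mice 1, 3, 21, 23, 24 or 84, the log2 fold change stayed between 0.97 and 1.06 and the adjusted p of the same edgeR test rose to between 0.102 and 0.136. These fits called between 0.421% and 1.54% of all genes tested, against 3.32% with all libraries of the set.

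At 22 weeks Acat1 had lowest, median and highest levels of 54.2, 85.5 and 291.4 CPM in RFD and of 87.5, 159.0 and 296.2 CPM in HFD. All 12 HFD libraries were above the RFD median, but RFD mouse 1, the highest of its group, was above all HFD libraries except mouse 6. The log2 fold change was 0.58 (SE 0.25, 95% interval 0.07 to 1.10), and its adjusted p of 0.420 by edgeR's quasi-likelihood F-test (Benjamini-Hochberg) did not pass (n = 11 and 12). The permutation test gave a difference of 0.65 (two-sided p = 0.0174). Without RFD mouse 1 the log2 fold change was 0.90 and the adjusted p 0.0277 in the same edgeR test. In that fit 4.76% of all genes tested were called, against 0.792% with all libraries of the set. That library had 37440 CPM of Paneth markers and 3941 CPM of tuft markers, respectively the highest and the lowest sums of its group.

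Bdh1, the beta-hydroxybutyrate dehydrogenase, did not pass the test at either time. At 9 weeks its lowest, median and highest levels were 49.7, 122.6 and 241.6 CPM in RFD and 40.8, 169.7 and 243.4 CPM in HFD. The lowest HFD library, mouse 64, was below every RFD library and only mouse 80 was above them all, although 10 of 11 were above the RFD median. HFD differed from RFD by a log2 fold change of 0.35 (95% interval -0.18 to 0.87, SE 0.26, adjusted p = 0.493 by edgeR's quasi-likelihood F-test (Benjamini-Hochberg)). At 22 weeks the levels were 37.7, 73.2 and 253.7 CPM in RFD and 80.2, 138.3 and 228.0 CPM in HFD. Every HFD library was above the RFD median there, and 0 of 12 were above RFD mouse 1. The log2 fold change was 0.60 (SE 0.26, 95% interval 0.07 to 1.13, adjusted p = 0.422 in the same test), and the permutation test gave a difference of 0.72 (two-sided p = 0.0113), against 0.31 (p = 0.301) at 9 weeks. As for Acat1, leaving out RFD mouse 1 turned the result at 22 weeks into a call, with a log2 fold change of 0.95 and an adjusted p of 0.0225 in the same edgeR test. The share of all genes called rose in that fit from 0.792% to 4.76%.

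Oxct1, the enzyme that commits acetoacetate to burning, gave no difference that could be told from the spread between mice. At 9 weeks its lowest, median and highest levels were 11.9, 42.5 and 98.5 CPM in RFD and 16.0, 56.1 and 103.6 CPM in HFD, and at 22 weeks 0, 35.0 and 69.5 CPM in RFD and 3.93, 31.4 and 52.6 CPM in HFD. The groups overlapped almost fully, with 7 of 11 HFD libraries above the RFD median at 9 weeks and 5 of 12 at 22 weeks. The library at 0 was RFD mouse 3, whose depth allows up to 2.63 CPM at a count of 0 (3 counts, counting error only). The log2 fold changes were 0.24 (SE 0.35, 95% interval -0.48 to 0.95, adjusted p = 0.781) at 9 weeks and -0.29 (SE 0.40, 95% interval -1.12 to 0.53, adjusted p = 0.855) at 22 weeks in edgeR's quasi-likelihood F-test (Benjamini-Hochberg). The permutation tests gave differences of 0.30 (two-sided p = 0.453) and 0.00 (p = 0.993).

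Slc16a1, the transporter gene, was the least abundant of the 4 per unit length and had the largest standard errors. At 9 weeks its lowest, median and highest levels were 2.87, 22.7 and 37.1 CPM in RFD and 3.04, 41.5 and 64 CPM in HFD, from a median of 12 reads in RFD and 57 in HFD. HFD mice 7 and 64 lay in the lower part of the RFD range, while 9 of 11 HFD libraries were above the RFD median and 6 above every RFD library. The log2 fold change of 1.18 (SE 0.45, 95% interval 0.27 to 2.10) did not pass, with an adjusted p of 0.160 by edgeR's quasi-likelihood F-test (Benjamini-Hochberg). It passed without RFD mouse 20 (1.40, adjusted p = 0.0602) or without HFD mouse 64 (1.29, adjusted p = 0.0629). In these fits 11.9% and 14.2% of all genes tested were called, against 3.32% with all libraries of the set. At 22 weeks the levels were 0, 27.6 and 104.0 CPM in RFD and 6.87, 43.5 and 135.4 CPM in HFD. RFD mouse 3 was again the library at 0 and HFD mouse 50 was low, and 10 of 12 HFD libraries were above the RFD median. The log2 fold change was 0.87 (SE 0.46, 95% interval -0.07 to 1.81, adjusted p = 0.527 in the same edgeR test). The permutation tests gave differences of 1.19 (two-sided p = 0.034) at 9 weeks and 1.14 (p = 0.0675) at 22 weeks.

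Counted together, 1 of the 4 genes was called at 9 weeks, where 3.32% of the 14020 genes tested were called (2.0% as higher on HFD, 1.33% as lower), and 0 of 4 at 22 weeks, where 0.792% were (0.435% higher and 0.357% lower). At an unadjusted p under 0.05, edgeR gave 2 of 4 at each time (Acat1 and Slc16a1 at 9 weeks, Acat1 and Bdh1 at 22 weeks), beside 18.0% and 10.3% of all genes. DESeq2 called Acat1 and Slc16a1 at 9 weeks, beside 10.9% of all genes, and none of the 4 at 22 weeks, beside 2.5%. The median log2 fold change of the 4 was 0.70 at 9 weeks and 0.59 at 22 weeks, where the medians over all genes tested were -0.05 and -0.03. With both sets fitted together and the set as a term, 2 of the 4 were called, both higher on HFD, where 11.7% of all genes were (6.03% higher and 5.68% lower). At an unadjusted p under 0.05 there were 3 of the 4, beside 23.5% of all genes. Acat1 was 1.73-fold higher on HFD (log2 fold change 0.79, SE 0.19, 95% interval 0.40 to 1.18, adjusted p = 0.00914 by edgeR's quasi-likelihood F-test (Benjamini-Hochberg)), and it stayed called whichever 1 of the 45 libraries was left out. Slc16a1 was 1.99-fold higher (log2 fold change 0.99, SE 0.33, 95% interval 0.32 to 1.66, adjusted p = 0.0590), and without HFD mouse 6 of 22 weeks its adjusted p was 0.101 at a log2 fold change of 0.91. For Bdh1 the log2 fold change was 0.46 (adjusted p = 0.111, SE 0.18), and for Oxct1 it was -0.05 (SE 0.27, adjusted p = 0.934). Bdh1 was called without any 1 of 11 libraries, in fits that called between 10.5% and 20% of all genes.

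The change of the diet effect between the sets was tested in 1 fit over all libraries, in which 0.0% of genes were called. The diet effect at 22 weeks minus that at 9 weeks was -0.44 (SE 0.38, unadjusted p = 0.249) for Acat1, 0.29 (SE 0.36, p = 0.427) for Bdh1, -0.49 (SE 0.55, p = 0.376) for Oxct1 and -0.29 (SE 0.67, p = 0.663) for Slc16a1 in edgeR's quasi-likelihood test. None of the 4 was called, and 0 of 14020 genes were, with 451 (3.22%) at an unadjusted p under 0.05 and 0 by DESeq2. A difference of the diet effect between the times was thus not detectable here, although the interval for Slc16a1 ran from -1.63 to 1.05.

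**Figure D2:**
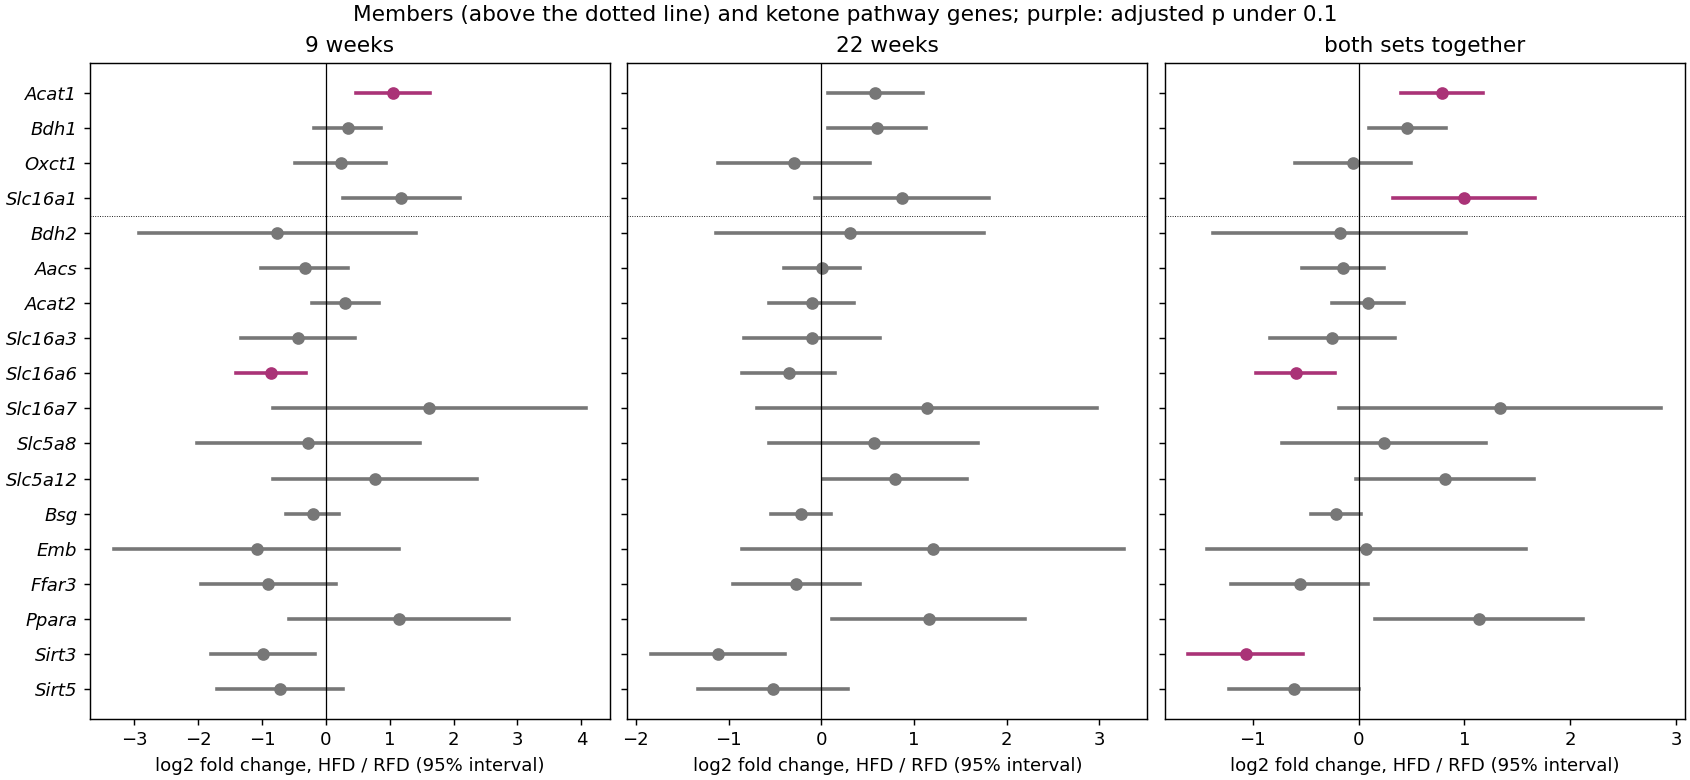
Log2 fold changes, HFD over RFD, with 95% intervals from edgeR's quasi-likelihood test at 9 weeks, at 22 weeks and with both sets together, for the 4 genes (above the dotted line) and the 14 other ketone pathway genes tested, with purple for adjusted p under 0.1. Acat1 lies to the right of 0 in all 3 panels, at 1.05, 0.58 and 0.79, and Slc16a6 to the left, at -0.86, -0.35 and -0.59.

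Other genes of the pathway were read from a list of 22, of which 14 had enough reads to be tested. At 9 weeks 1 passed the test as lower on HFD and 13 did not pass, where 3.32% of all genes were called. At 22 weeks 0 of 14 were called by edgeR's quasi-likelihood F-test (Benjamini-Hochberg), beside 0.792% of all genes, with 3 of 14 at an unadjusted p under 0.05, beside 10.3%. With both sets together 2 of 14 were lower and 12 did not pass, a share near the 11.7% called among all genes. The median log2 fold change of the list was -0.38 at 9 weeks, -0.04 at 22 weeks and -0.17 together, where the medians over all genes tested were -0.05, -0.03 and -0.06. The genes that passed were Slc16a6, of transport, and Sirt3, of regulation.

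Slc16a6, a monocarboxylate transporter family member linked to ketone body export from liver, was the lower gene at 9 weeks. Its lowest, median and highest levels were 44.3, 75.8 and 134.0 CPM in RFD and 21.1, 37.0 and 115.0 CPM in HFD. All 11 RFD libraries were above the HFD median and 8 of 11 HFD libraries were below every RFD library, while HFD mouse 64 alone set the upper end of its group, the next highest library being at 62.5 CPM. The difference on the log2 scale was -0.86 (SE 0.27, adjusted p = 0.0971 by edgeR's quasi-likelihood F-test (Benjamini-Hochberg)), a call kept in 5 of 22 fits that left out 1 library. Without HFD mouse 64 the difference was -1.12 (adjusted p = 0.0108 in the same test). In that fit 14.2% of all genes were called, against 3.32% with all libraries of the set. At 22 weeks its log2 fold change was -0.35 (adjusted p = 0.668), and with both sets together it was -0.59 (SE 0.19, adjusted p = 0.0412). Sirt3, a mitochondrial deacetylase that acts on enzymes of ketone synthesis, was called lower with both sets together (-1.07, SE 0.27, adjusted p = 0.0118 in the same test) and not at either time alone (-0.98, adjusted p = 0.188, and -1.11, adjusted p = 0.204). Its median was 28.4 CPM in RFD and 14.1 CPM in HFD at 9 weeks, and 25.3 and 13.99 CPM at 22 weeks. At 22 weeks RFD mouse 3 was at 137.6 CPM and the other RFD libraries between 14.6 and 29.8 CPM. The log2 fold change of Sirt3 there was -0.63 without RFD mouse 3 (adjusted p = 0.272 in the same edgeR test), and -1.13 without RFD mouse 1 (adjusted p = 0.0926, beside 4.76% of all genes called). With both sets together it was -0.81 without RFD mouse 3 (adjusted p = 0.0243).

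The other tested genes did not pass at any time. Ppara, the nuclear receptor that drives fatty acid oxidation genes in liver, was at medians of 2.59 and 12.1 CPM in RFD and HFD at 9 weeks and of 3.40 and 6.15 CPM at 22 weeks (log2 fold change together 1.14, adjusted p = 0.146 by edgeR's quasi-likelihood F-test (Benjamini-Hochberg)). Bsg, the chaperone that brings MCT1 to the membrane, was abundant at medians between 671.7 and 1049 CPM in the 4 groups, with log2 fold changes of -0.20 and -0.22. Among the transporters, Slc16a3 had log2 fold changes of -0.44 and -0.10, whose sign turned in 3 of 13 and 6 of 12 other settings, and among the enzymes, cytosolic Acat2 had 0.31 and -0.10, Aacs -0.33 and 0.01 and Bdh2 -0.76 and 0.31 at 9 and 22 weeks. Hmgcll1, Oxct2a, Oxct2b, Slc16a4, Slc16a8, Hcar2, Fgf21 and Foxa2 did not pass the filter on low counts. With no filter 20 of the 22 could be tested at 9 weeks and 2 were called, beside 5.22% of the 32549 genes tested so. These were 1 lower and Foxa2 as higher on HFD (adjusted p = 0.0499 in the same edgeR test). Foxa2, a forkhead transcription factor, then had at most 25 reads in an HFD library, with 3 of 11 at 0, and at most 2 in an RFD library, with 10 of 11 at 0, and 7 HFD libraries were above every RFD library. At 22 weeks Foxa2 was at 0 in 9 of 12 HFD and 6 of 11 RFD libraries, with means of 0.77 and 0.82 CPM. With no filter 0 of the 21 list genes tested there were called, beside 1.26% of all genes.

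**Figure D3:**
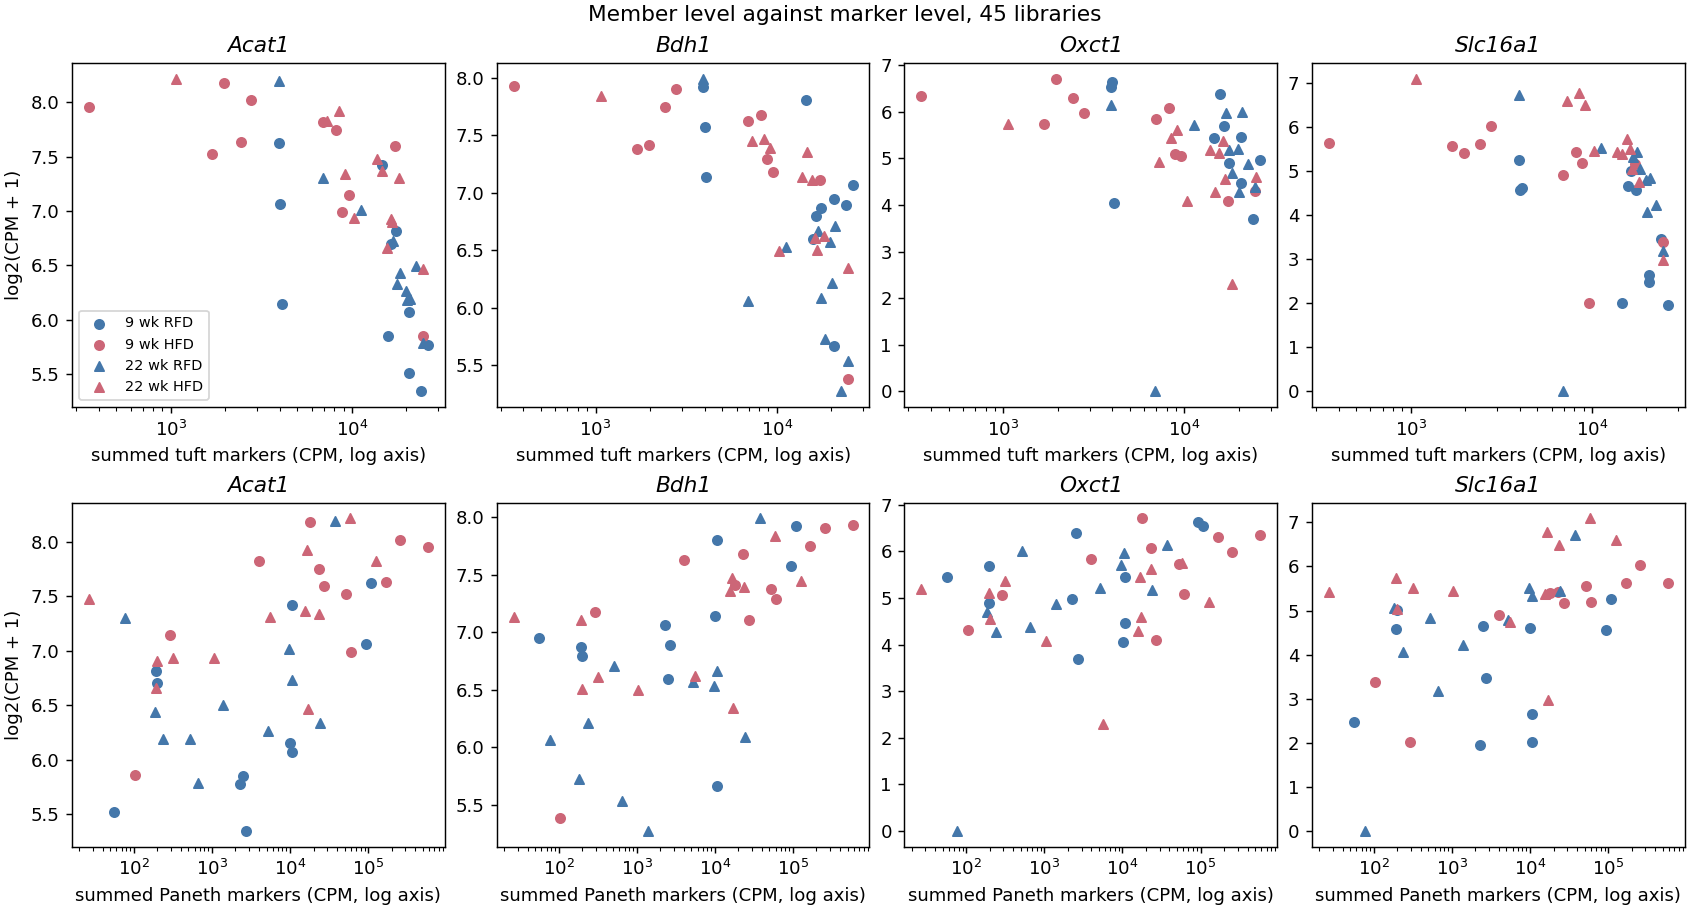
Level of each gene as log2(CPM + 1) against the summed tuft markers (upper row) and the summed Paneth markers (lower row) of the same library, both on log axes in CPM, for 45 libraries coloured by diet, with circles for 9 weeks and triangles for 22 weeks. Spearman rho was taken with the mean log2(CPM + 1) of each marker list, not with the sums shown. It ran from -0.49 for Oxct1 to -0.78 for Acat1 with tuft markers, and from 0.47 to 0.65 with Paneth markers.

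The levels of all 4 genes moved with the cell makeup of the libraries. For each marker list the mean log2(CPM + 1) of its genes was taken per library. Across the 45 libraries, Spearman's rho with this mean for tuft markers was -0.733 for Bdh1, -0.784 for Acat1, -0.488 for Oxct1 and -0.565 for Slc16a1. With the group means removed it was -0.609, -0.682, -0.517 and -0.593. With Paneth markers rho over the 45 libraries was 0.652, 0.596, 0.465 and 0.520, and with proliferation markers (Mki67, Top2a, Ccnb1, Cdk1 and Birc5) 0.796, 0.691, 0.625 and 0.518 in the same order. With stem markers it was 0.790, 0.615, 0.462 and 0.447, and with goblet markers 0.516, 0.447, 0.517 and 0.377. With group means removed, the ranges were 0.444 to 0.622 for Paneth, 0.559 to 0.733 for proliferation, 0.399 to 0.560 for stem and 0.236 to 0.436 for goblet markers. With enterocyte markers rho lay between -0.138 and 0.233. These are descriptions over libraries that share their depth and normalization. No tuft, Paneth or proliferation marker was called between the diets at either time, so the medians of these lists are descriptions only. The median log2 fold change of tuft markers was -0.97 at 9 weeks and -0.44 at 22 weeks (0 of 17 called). It was 2.23 and 1.43 for Paneth markers (0 of 5 called) and 1.29 and 0.81 for proliferation markers (0 of 5 called). Of the 5 stem cell markers, 2 were called higher on HFD at 9 weeks and 0 at 22 weeks, beside 2.0% and 0.435% of all genes tested. Their summed medians were 443.4 and 1360 CPM at 9 weeks and 140.0 and 246.1 CPM at 22 weeks.

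The remaining markers were read for the same reason. Of 14 enterocyte markers, 1 was called lower on HFD at 9 weeks and 2 at 22 weeks, with summed medians of 7080 and 6742 CPM and of 12830 and 12660 CPM. Of 8 enteroendocrine markers, 0 were called at 9 weeks and 2 were lower at 22 weeks, with medians of 533.6 and 185.2 CPM there. Over all genes tested, 3.32% were called at 9 weeks (1.33% as lower) and 0.792% at 22 weeks (0.357% as lower). Goblet cell markers had medians of 2487 and 3014 CPM at 9 weeks and of 1253 and 2331 CPM at 22 weeks, and M cell markers of 582.0 and 247.8 CPM at 9 weeks and of 522.2 and 470.9 CPM at 22 weeks. The M cell sum was mostly Spib, with medians of 559.0, 218.4, 520.2 and 450.2 CPM in the same order, and Gp2 had a median of 0 CPM in all 4 groups. No goblet or M cell marker was called at either time (6 of 6 and 2 of 4 tested), and neither was a marker of T cells (7 of 8 tested), eosinophils (1 of 5) or macrophages (5 of 5), whose summed medians were at most 27.3, 5.84 and 6.51 CPM in any group. Single libraries were far higher in macrophage markers, up to 439.9 CPM in RFD and 409.1 CPM in HFD at 9 weeks and 1329 CPM in HFD at 22 weeks, where the highest RFD library had 17.5 CPM and the list's median log2 fold change was 4.42. Their part in the results was not tested. Counts for these lists come by edgeR's quasi-likelihood F-test (Benjamini-Hochberg) over all genes.

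Without HFD mouse 80, the log2 fold changes at 9 weeks were 0.98 for Acat1 (adjusted p = 0.136), 0.25 for Bdh1 (0.697), 0.13 for Oxct1 (0.911) and 1.09 for Slc16a1 (0.274) in edgeR's quasi-likelihood F-test (Benjamini-Hochberg). Without RFD mouse 3, those at 22 weeks were 0.63 for Acat1 (adjusted p = 0.259), 0.56 for Bdh1 (0.343), -0.43 for Oxct1 (0.560) and 0.73 for Slc16a1 (0.438) in the same test. The comparisons were also repeated without the 2 RFD and 5 HFD libraries at 9 weeks and the 2 HFD libraries at 22 weeks that had more than 50000 CPM of Paneth markers. Acat1 then had log2 fold changes of 1.22 at 9 weeks (adjusted p = 0.117, 9 RFD against 6 HFD libraries), 0.38 at 22 weeks (adjusted p = 0.890) and 0.78 with both sets together (adjusted p = 0.0657, called) in edgeR's quasi-likelihood F-test (Benjamini-Hochberg). Slc16a1 had 0.99, 0.55 and 0.79 (adjusted p = 0.334 together), and Bdh1 0.28, 0.44 and 0.43 (adjusted p = 0.348 together). Oxct1 had 0.41, -0.41 and 0.00. Of all genes, 0.606%, 0.221% and 2.89% were called in the same order. With both sets together Sirt3 was still called (-1.30, adjusted p = 0.0267), whereas Slc16a6 was not (-0.34, adjusted p = 0.471). Without every library in which Paneth markers exceeded tuft markers, 8 RFD and 3 HFD libraries were left at 9 weeks and 9 and 7 at 22 weeks. None of the 4 genes was called then. Of all 14020 genes tested, 0 were called at 9 weeks, 0.0856% at 22 weeks and 0.728% with both sets together. With both sets Acat1 had 0.57 (adjusted p = 0.304), Slc16a1 0.43 (adjusted p = 0.821) and Bdh1 0.35 (adjusted p = 0.630) in the same edgeR test. With stem and proliferation markers as a covariate in place of leaving libraries out, Acat1 had 0.35 at 9 weeks (adjusted p = 0.838) and 0.43 together (adjusted p = 0.465), Slc16a1 had 0.27 and 0.33, and Bdh1 -0.38 and 0.04. Few genes of any kind passed with this covariate: 1 of 14020 (0.00713%) at 9 weeks and 0.678% together. With tuft markers as the covariate Acat1 stayed called together (0.52, adjusted p = 0.0478 in the same edgeR test), beside 3.73% of all genes. At 9 weeks Acat1 was not called (0.65, adjusted p = 0.546), beside 0.136% of all genes. Which cells the transcripts came from was not tested.

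**Figure D4:**
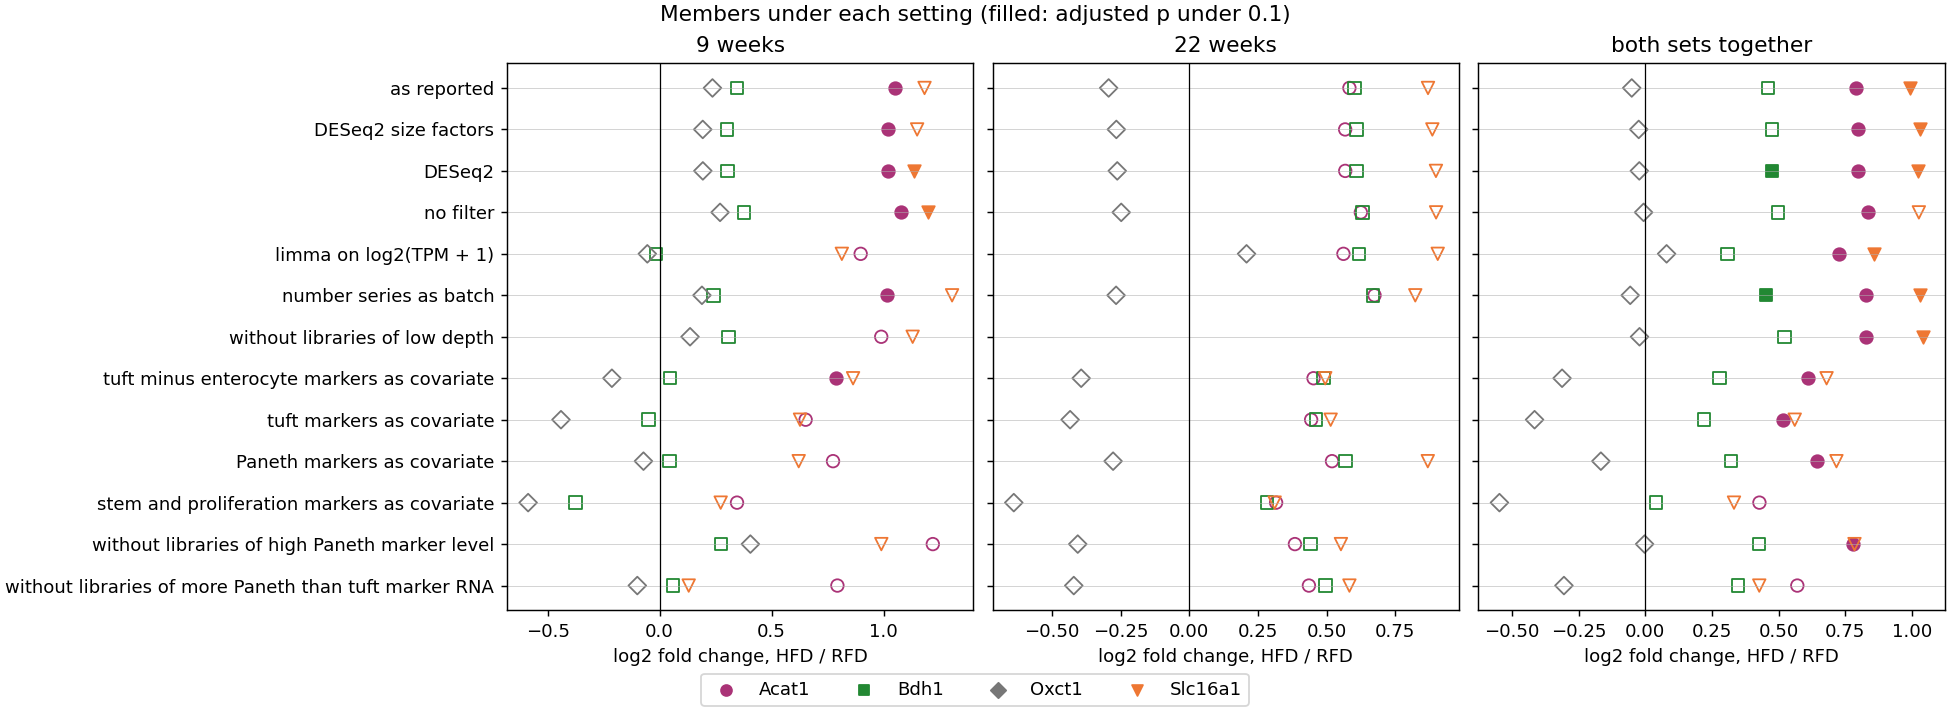
Log2 fold change, HFD over RFD, of the 4 genes under the reported fit and 12 other settings, at 9 weeks, at 22 weeks and with both sets together, with filled symbols for adjusted p under 0.1. The setting without libraries of under 500000 reads is absent at 22 weeks, which has none so shallow. Acat1 stays above 0 throughout, and its lowest value at 9 weeks, 0.35, is that with stem and proliferation markers as covariate, while Oxct1 and, at 9 weeks, Bdh1 lie on both sides of 0.

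The mouse numbers fall into 3 series (1 to 8, multiples of 10, and the rest from 21 to 64), with 2 libraries in none, and the diet difference in mean log2(CPM + 1) was also taken within each. In the order of these series, it was 1.43, 0.67 and 1.07 for Acat1 at 9 weeks, and 0.49, 0.92 and 0.68 at 22 weeks. For Bdh1 it was 0.37, 0.08 and 0.10, and 0.72, 0.86 and 0.75. For Slc16a1 it was 1.44, 0.79 and 1.5, and 2.14, 0.31 and 0.79. The direction was thus the same in all 6 comparisons for each of these genes. Oxct1 had 0.22, 0.04 and 0.32 at 9 weeks but 0.88, -1.06 and 0.09 at 22 weeks. No difference of the 4 genes reached an exact permutation p under 0.05 within a series, where 3 or 4 libraries a diet allow at best 0.0571 at 9 weeks and 0.0286 or 0.1 at 22 weeks.

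**Figure D5:**
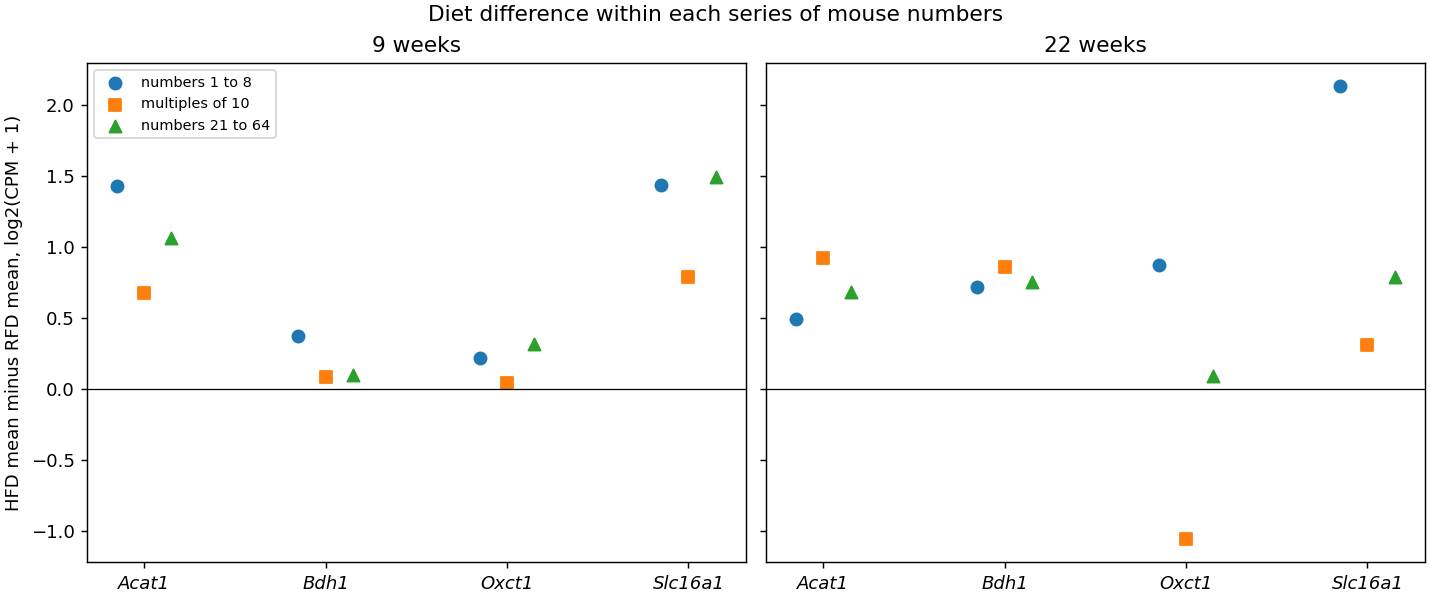
HFD mean minus RFD mean of log2(CPM + 1) within each of the 3 series of mouse numbers at 9 and 22 weeks, for the 4 genes. Acat1, Bdh1 and Slc16a1 lie above 0 in all 6 cases, and Oxct1 falls to -1.06 in 1 series at 22 weeks.

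Among themselves, the 4 genes rose and fell together to unequal degrees over the 45 libraries. Spearman's rho was 0.752 between Bdh1 and Acat1, 0.658 between Acat1 and Slc16a1, 0.610 between Bdh1 and Oxct1, 0.502 between Bdh1 and Slc16a1, 0.447 between Acat1 and Oxct1 and 0.433 between Oxct1 and Slc16a1. Of 8036 genes with a mean of at least 10 CPM, those most like Bdh1 were Idh2 (rho 0.891), Hsd17b10 (0.883) and Tkt (0.881), and those most like Acat1 were Vdac1 (0.913), Otc (0.907) and Mrpl12 (0.896). Oxct1 was most like Uqcrc2 (0.765), Dnttip2 (0.751) and Dnajc2 (0.747), and Slc16a1 most like Serinc3 (0.823), Ddb1 (0.806) and Arf4 (0.798). Of these, Idh2, Hsd17b10, Vdac1, Otc, Mrpl12 and Uqcrc2 encode mitochondrial proteins. The points share libraries, depth and cell makeup, so these values rank likeness only.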

How the data were processed

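RNA of sorted tuft cells from 45 mice was amplified by Smart-seq2 and sequenced in pairs. Per the submitters' processing notes, the authors used cutadapt 1.15, STAR 2.6.0 and RSEM with GRCm38, and the annotation is not given in the sources used here. They deposited expected counts (8.79% of those above 0 were not whole) and TPM per gene, and FPKM values, which were not used. Their weighing by cell type proportions was not repeated, and 24 count columns without a sample were not used. Groups came from the titles.

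Expected counts were rounded, and genes with more than 5 reads in at least 6 of 45 libraries (14020) were tested with edgeR 4.0.16 in R 4.3.3 (TMM, robust quasi-likelihood test, Benjamini-Hochberg adjustment over all of them), called at adjusted p under 0.1. Differences in mean log2(CPM + 1) were tested by permutation (scipy 1.17.1, two-sided, 100000 resamples, exact where a group had under 10). The scripts were tested on simulated counts. Each n counts mice. The study kept several mice to a cage and terminated each group cage by cage over consecutive days. Neither cage nor day is in the labels, and neither was a term in the tests. No 2 libraries were identical. The total of 189340 to 4690213 reads per library limits low genes such as Slc16a1, and intervals at 0 counts cover counting error only. Alternatives were DESeq2 1.42.0, limma 3.58.1 on log2(TPM + 1), other filters, scalings, covariates and libraries. Tuft, stem with proliferation and Paneth covariates, both selections by Paneth markers, and leaving out single libraries with both sets together were chosen after seeing the data. Genes named are the 4 genes, the pathway list (some of its genes are not reported here), marker genes and, for each of the 4, the 3 genes of highest rho. The 4 genes and all lists were chosen with earlier results of these data known.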

Additional observations from a re-analysis of the deposited data

How the results depend on the processing

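Of 14020 genes, 466, 111, 0 and 1642 were called at 9 weeks, at 22 weeks, for the change between sets and with both sets together. In the same order, where the count moved by over 1.5 times, DESeq2 gave 1534, 351 and, with both sets, 2804. No filter gave 1698, 435 and, for the change, 65. limma gave 9, 51 and, with both sets, 941. Tuft minus enterocyte markers as covariate gave 272 and, with both sets, 1033. The number series as a term gave 185 at 22 weeks, 1 fit over all libraries 63 there, and leaving out 2 libraries of under 500000 reads 290 at 9 weeks (22 weeks has none so shallow).

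Chosen after seeing the data, tuft markers as covariate gave 19, 179 and 523, stem and proliferation markers 1, 64 and 95, Paneth markers 27 and, with both sets, 812, leaving out libraries above 50000 CPM of Paneth markers 85, 31 and 405, and leaving out those with more Paneth than tuft markers 0 (887 at an unadjusted p under 0.05 in edgeR), 12 and 102. Without 1 library at a time the counts ran from 59 (without HFD mouse 6) to 1996 (without HFD mouse 64) at 9 weeks, from 58 (without RFD mouse 10) to 667 (without RFD mouse 1) at 22 weeks, and from 1255 (without HFD mouse 70 of 9 weeks) to 2809 (without RFD mouse 1 of 22 weeks) with both sets.

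For the 4 genes and Slc16a6, signs turned as follows (log2 fold changes). At 9 weeks Bdh1 had -0.017 in limma, -0.050 with tuft and -0.38 with stem and proliferation markers as covariate. Oxct1 had -0.055 in limma, -0.21 with tuft minus enterocyte, -0.44 with tuft, -0.59 with stem and proliferation and -0.072 with Paneth markers as covariate, and -0.10 without libraries of more Paneth than tuft markers. At 22 weeks Oxct1 had 0.21 in limma, and Slc16a6 0.025 with stem and proliferation markers. With both sets Oxct1 had 0.080 in limma and, without single libraries, from -0.12 to 0.074. For the change between sets limma gave Oxct1 0.26 and Slc16a1 0.091, and Slc16a1 had 0.053 and 0.34 with tuft and Paneth markers and 0.45 without libraries of more Paneth than tuft markers. Of mean differences in log2(TPM + 1) at 9 weeks, Bdh1 had -0.017 and Oxct1 -0.055. Without libraries of more Paneth than tuft markers, log2(CPM + 1) differences by permutation were -0.10 for Bdh1, 0.75 (p = 0.182) for Acat1, -0.056 for Oxct1 and 0.083 (p = 0.933) for Slc16a1 at 9 weeks and -0.11 for Oxct1 at 22 weeks, with exact p for groups under 10. Without libraries above 50000 CPM of Paneth markers they were 0.89 (permutation p = 0.205) for Slc16a1 at 9 weeks, and 0.50 (p = 0.0578) for Acat1 and -0.11 for Oxct1 at 22 weeks. Of the other pathway genes, none called at either time, signs turned in 13 settings at 9 weeks for Slc16a7 (4), Slc16a3 (3), Bsg and Ffar3 (2 each) and Bdh2, Acat2, Slc5a8 and Ppara (1 each), and in 12 at 22 weeks for Slc16a3 (6, up to 0.37), Aacs and Ffar3 (2 each) and Bdh2 (1). The cause of these changes was not tested.

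Of the values for the 4 genes, 34 of 52 at 9 weeks, 47 of 48 at 22 weeks, 47 of 52 for the change and 36 of 48 with both sets kept their direction and their side of the threshold. The 16 mouse numbers that occur in both sets with the same diet share only a number (correlations of deviations from -0.383 to 0.381), and with the number as a replicate block 0 genes were called for the change between sets. Depth limits Slc16a1 and Oxct1, which had under 10 reads in some libraries, and Acat1 had 9 reads in RFD mouse 40 at 9 weeks.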
